A study of Mus musculus with 4 samples.

Results

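The cells described here were picked from single-cell libraries of whole embryonic mouse noses as non-neuronal olfactory epithelial cells. They were picked by their keratins and by genes of the supporting-cell programme. The name is that of the rule, and 42.0% of the cells, group 1 below, had leading genes of respiratory and surface epithelium. Levels over all members include these cells. Each cell was read as counts of unique molecular identifiers (UMIs), random tags that each mark 1 captured molecule. A cell was a member if it had at least 2 UMIs of the simple-epithelial keratins Krt8 and Krt18 together and at least 2 of 7 marker genes detected, which were Otx2, Otx2os1, Sult1e1, Edn2, Ermn, Aox2 and Cpm. Members also had no UMI of Gng8 or Stmn2, which mark immature neurons, and fewer than 5 UMIs of Krt5 and Krt14, the keratins of stratified basal cells. The rule found 274 members among 13739 retained cells, with 87 and 18 in the controls 1 and 2 and 79 and 90 in the mutants 1 and 2. These marker values chose the cells, so they are given as a description and no test of them is reported.

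All noses were taken at embryonic day 14.5. The 2 mutant libraries carried the transgene Tg(Sox10-cre)1Wdr, in which Sox10 sequences drive a Cre recombinase, with floxed Yap and Taz alleles on a C57Bl/6J background. The series design adds that the mutants kept 1 wild-type Yap allele and that both Taz alleles were floxed. For the 2 control libraries the sources disagree: the sample labels name the strain C57Bl/6J alone, whereas the series design names animals with both Yap and both Taz alleles floxed and no Cre. Sox10 marks the neural crest and its glia, whereas the olfactory epithelium comes mainly from the olfactory placode. The labels speak of 2 noses per genotype but do not say whether a library is 1 nose, so p-values measure the spread between libraries, which may be partly technical. They also name 2 sequencing providers without assigning libraries to them, so that batch cannot be told apart.

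The olfactory epithelium is a layered sheet in which sustentacular cells span from the surface to the basement membrane and surround the sensory neurons. Sustentacular cells are known for enzymes that break down odorants and foreign compounds, such as cytochromes P450 and glutathione S-transferases, and for keeping Notch signalling and the transcription factors Sox2, Pax6 and Otx2 active. At the edges of the sheet it meets respiratory epithelium, which carries secretory and multiciliated cells, and beneath it lie the Bowman glands. In the embryo the apical layer also holds dividing progenitors, which go on to supporting cells or to neurons.

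Library totals ran from 20170229 to 35887490 UMIs, and pairs of libraries shared between 4 and 8 cell barcodes. Members had a median of 14210 and 7087 UMIs in the 2 controls, 15461 in mutant 1 and 8860.5 in mutant 2. Control 2 stood apart from the other libraries. Over 10376 genes its summed members correlated at a Spearman coefficient of 0.82 to 0.83 with the other 3 libraries, which correlated at 0.95 to 0.96 among themselves. Of its 18 members, 13 had exactly 2 of the 7 markers, against 18 of 87, 13 of 79 and 21 of 90 in control 1, mutant 1 and mutant 2. One member of control 2 held 4206 Ttr, 220 Htr2c, 46 Kcne2 and 34 Folr1 UMIs among 32928, genes known from the choroid plexus of the brain, with no Epcam UMI. In all retained cells, Ttr was detected in 140 of 2474 cells of control 2 and in 14 of 4075, 23 of 2995 and 16 of 4195 cells of control 1, mutant 1 and mutant 2. Results that rest on control 2 are therefore given with and without it below, and levels in groups of members leave the Ttr-rich cell out.

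The rule's own genes showed how evenly the members were picked. Levels are UMIs scaled to a total of 1e6 per library (CPM, counts per 1e6), summed over the members of a library. Otx2, a homeobox factor of head and sensory epithelia, stood at 287, 255, 239 and 259 CPM in control 1, control 2, mutant 1 and mutant 2. These levels were close in the 4 libraries, whereas several other marker genes were low in control 2. The Ttr-rich cell held 18 of the 60 Otx2 UMIs of control 2, however. Without that cell control 2 stood at 208 CPM of Otx2, the lowest library. Edn2, which encodes the peptide endothelin 2, stood at 426, 42.5, 507 and 376 CPM in the same order. Sult1e1, the estrogen sulfotransferase, stood at 341, 93.6, 697 and 437 CPM. Aox2, an aldehyde oxidase of the olfactory mucosa, stood at 135, 17.0, 225 and 188 CPM, and Krt18 at 840.3, 281, 971 and 948 CPM. In each of these 4 genes control 2 was the lowest library, and the gap for Aox2 and Edn2 was the widest. Cpm, a membrane carboxypeptidase, was more even at 353, 234, 302 and 393 CPM. Ermn, which encodes an actin-binding protein, stood at 103, 59.5, 143 and 136 CPM.

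Of the 274 members, 179 had 4 or more of the 7 markers, 30 had 3 and 65 had exactly 2, just inside the rule. Just outside it, 71 cells met every other condition with 1 marker. A further 51 cells were left out by a neuronal UMI alone and 48 by their basal keratins alone. The share of members with an Otx2 UMI was 80.5%, 61.1%, 75.9% and 76.7% by library. Macrophage-type cells, which should lack Otx2, had it in 0 of 67, 0 of 61, 0 of 45 and 4 of 86 cells. The 3 counts of 0 leave room for shares as high as 4.48%, 4.92% and 6.67%, and the median depths of those cells were 9862, 8320, 10232 and 7748 UMIs. Krt18 was detected in 97.7%, 94.4%, 98.7% and 98.9% of members, and in 1.49%, 0 of 61, 2.22% and 6.98% of macrophage-type cells.

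**Figure D1:**
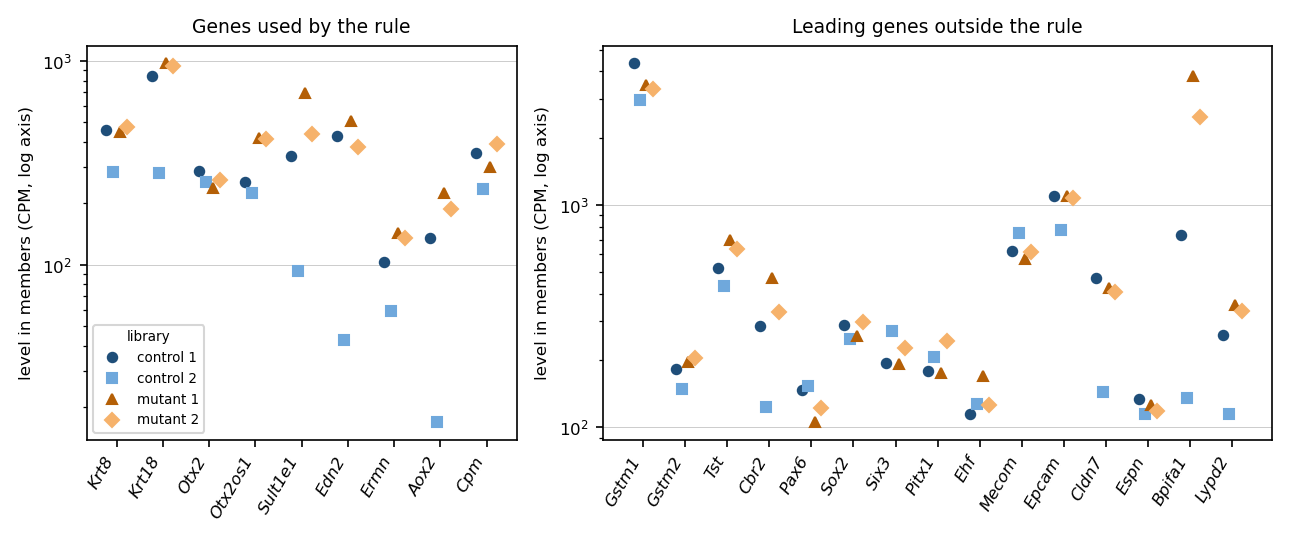
Levels in the members of each library, in CPM on a log axis, for genes of the rule (left) and for leading genes outside it (right); each point is 1 library. Control 2 is the lowest library for Krt18, Sult1e1, Edn2, Ermn and Aox2, while Otx2, Sox2 and Mecom lie close together in the 4 libraries. The points of control 2 include the Ttr-rich cell, without which its Otx2 stood at 208 CPM.

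Genes outside the rule were ranked by the lowest of the 4 libraries' ratios of members to all other retained cells. Since the members were chosen on the same cells, these ratios describe them and were not tested. Bpifa1, a secreted antimicrobial protein of the upper airway, came first, with ratios of 40.3 to 266, at 733, 136, 3800 and 2482 CPM in members. Lypd2, next after Gstm1, stood at 259, 115, 355 and 333 CPM. Both were highest in the first of the 4 groups of members described below, at 5793 and 573 CPM. Gstm1, a glutathione S-transferase that couples reactive compounds to glutathione, stood at 4339.6, 2981, 3463 and 3319 CPM in members. All other cells held 121, 24.2, 68.5 and 95.5 CPM of it, so that the ratio was between 34.7 and 123 in the 4 libraries. Gstm1 was detected in 86.2%, 66.7%, 92.4% and 87.8% of members and also in 25.4%, 19.7%, 20% and 18.6% of macrophage-type cells, a background that its high level in members exceeds. Gstm2, of the same family, stood between 149 and 205 CPM. Tst, a mitochondrial sulfurtransferase that detoxifies cyanide, stood at 519, 434, 693 and 637 CPM, at least 20.4 times its level in other cells of the same library. Cbr2, a carbonyl reductase also known from airway epithelium, stood at 286, 123, 469 and 330.2 CPM. Tst and Cbr2 were also high in respiratory-type cells, described below, where Cbr2 stood at 691, 514 and 897 CPM.

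Transcription factors of the placode and anterior head formed another part of the 20. Pax6 stood at 148, 153, 106 and 123 CPM, with ratios of 20.3 to 63.6 over other cells. Both mutants lay below both controls for Pax6, as they did for 15.4% of all genes tested, and its log2 change was -0.40 ± 0.21 (SE, edgeR adjusted p = 1.00). Sox2, a factor of progenitors and of supporting cells, stood at 289, 251, 257 and 298 CPM. Six3 stood at 194, 272, 194 and 227 CPM, and its neighbouring noncoding gene Six3os1 at 165, 238, 173 and 173 CPM. Control and mutant libraries overlapped for Sox2, Six3 and Six3os1. Pitx1, a homeobox factor of oral and nasal ectoderm, lay between 175 and 245 CPM, Ehf, an epithelial ETS factor, between 115 and 169.9 CPM, and Mecom, a zinc-finger factor, between 570.0 and 748 CPM. Other leading genes had other roles. Epcam, an adhesion protein of epithelia, stood at 1103, 770, 1100 and 1075 CPM, and Cldn7, a tight-junction claudin, at 471, 145, 423 and 405 CPM. Espn, which bundles actin in microvilli, lay between 115 and 135 CPM, and its ratio over other cells between 17.9 and 70.1.

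The comparison with nearby cell types shows which of these genes were shared. Respiratory-type cells met the same keratin limits, were not members and carried at least 2 of Bpifa1, Cbr2, Olfm5, Scgb1c1, Ltf and Foxj1. There were 12 in control 1, 15 in mutant 1 and 13 in mutant 2. Control 2 had 0 of 2474 cells, which allows a share of up to 0.121%. Gstm1 stood at 329, 388 and 531 CPM in those cells, and Espn at 12.2, 6.64 and 26.5 CPM, far under the members of the same libraries. Tst, Six3 and Epcam were near or above their levels in members: Tst stood at 553, 524 and 828 CPM there, Six3 at 345, 285 and 350.2 CPM and Epcam at 943, 1168 and 918 CPM. Ehf, at 317, 153 and 255 CPM, and Lypd2, at 252, 279 and 382 CPM, were near or above as well. Mecom stood at 614, 541 and 175 CPM, near its level in members except in mutant 2. Pax6, at 81.3, 59.7 and 95.5 CPM, and Sox2, at 211, 123 and 175 CPM, were lower than in members but not absent. Basal keratinocytes, with at least 5 UMIs of Krt5 and Krt14, held between 17.0 and 48.6 CPM of Gstm1 and between 389 and 521 CPM of Epcam. Neuronal-lineage cells, defined below, held 1479, 372 and 1160 CPM of Gstm1 in control 1, mutant 1 and mutant 2, and 14.7 CPM in control 2. Espn stood there at 55.1, 41.2 and 74.2 CPM in control 1, mutant 1 and mutant 2. Gstm1 was thus not particular to the members.

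Markers of other cell types were low in members, but not all were absent. Macrophage genes summed to between 0 and 13.8 CPM in the 4 libraries, against 181 to 296 CPM in other cells. Endothelial genes summed to at most 12.8 CPM, with Cdh5 and Tie1 at 0, and melanocyte genes to at most 2.77 CPM, with Dct, Tyr, Tyrp1 and Mlana at 0. Mesenchyme genes summed to 245, 336, 368 and 369 CPM, against 5987 to 7232 CPM in other cells, and Dcn, at 147 to 187 CPM, was the most abundant of them. Glial genes summed to between 46.8 and 84.3 CPM, of which Erbb3 made up the larger part, and Foxd3 was at 0. Genes of the neuronal lineage summed to 227, 710.1, 236 and 283 CPM, so control 2 stood above the others. Obp1a and Obp2a, odorant-binding proteins of nasal glands, were at 0, and Ltf and Retnla, of mature respiratory epithelium, were at 0 as well. Of 12 genes linked to Bowman glands, 5 had no UMI in any member. Cyp2g1, a P450 of olfactory mucosa, stood at 81.3, 12.8, 113 and 70.1 CPM.

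The members were not uniform. They were divided into 4 groups by Ward clustering on 10 principal components of 1000 variable genes, with 115, 82, 42 and 35 cells. The groups and their genes come from the same cells, so the differences between them are a description. Group 1 held 30, 12, 32 and 41 cells of control 1, control 2, mutant 1 and mutant 2, group 2 held 28, 5, 23 and 26, group 3 held 20, 1, 11 and 10, and group 4 held 9, 0, 13 and 13. The single cell of control 2 in group 3 was the Ttr-rich cell. With 0 of 18 members in group 4, control 2 allows a share of up to 16.7% there.

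**Figure D2:**
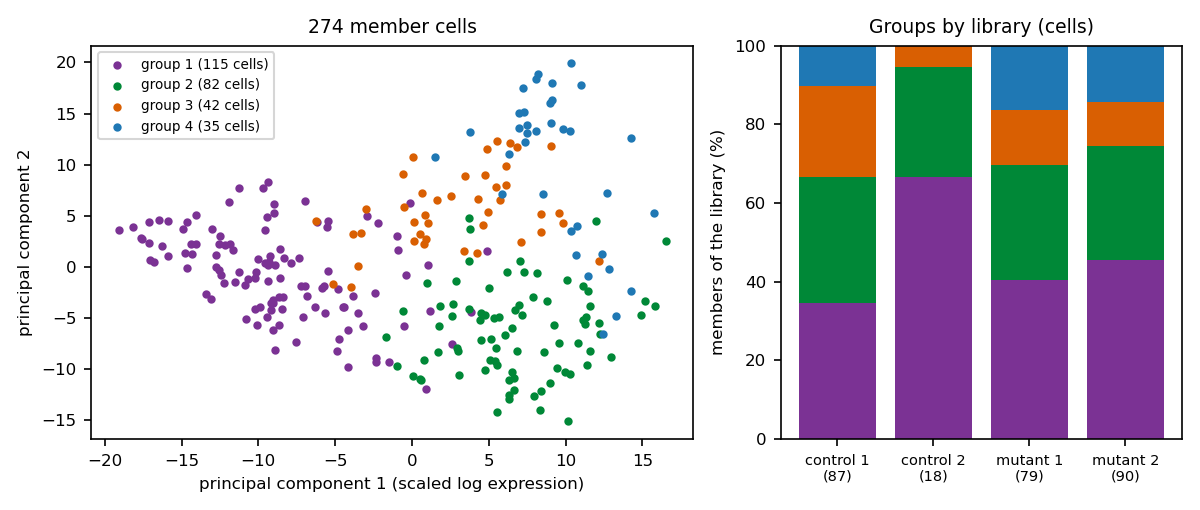
Left, the 274 members on the first 2 principal components of scaled log expression, coloured by group; right, the percentage of each library's members in each group, with the number of members in brackets. Group 1 lies at the low end of component 1 and makes up 34.5%, 66.7%, 40.5% and 45.6% of the members of control 1, control 2, mutant 1 and mutant 2.

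Group 1 went against the label. Its leading genes were those of respiratory and surface epithelium rather than of sustentacular cells, and 42.0% of all members were in it. Anxa1, a phospholipid-binding protein of surface epithelia, stood at 406 CPM in group 1 and was detected in 53.9% of its cells, against 5.70% of the cells of groups 2 to 4. Krt19 was detected in 58.3% against 13.9%, Serpinb11 in 53.0% against 3.80%, and Olfm5 in 44.3% against 5.70%. Bpifa1 stood at 5793 CPM in group 1 and 407 CPM in group 2. It was found in 0 of 41 cells of group 3 and 0 of 35 of group 4, which allow shares of up to 7.32% and 8.57%. Otx2 was detected in 52.2% of group 1 and in 94.3% of groups 2 to 4, Espn in 23.5% against 82.3% and Hey1, a Notch effector, in 34.8% against 84.2%. A subset of group 1 carried genes of cells becoming multiciliated: Mcidas, a regulator of that fate, was detected in 25.2% of its cells, Ccno in 23.5% and Foxj1 in 16.5%, against 3.80%, 4.43% and 1.27% in groups 2 to 4. Otx2, Sox2 and Espn were more widespread in groups 2 to 4, and group 1 is given no cell type name here.

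Group 2 was led by genes of the cell cycle. Top2a, which untangles DNA before division, was detected in 84.1% of its cells at 478 CPM, against 25.2%, 24.4% and 37.1% in groups 1, 3 and 4. Ube2c, a ubiquitin-conjugating enzyme of mitotic exit, was detected in 80.5% and Mki67 in 75.6%. Ebf1, a factor of the neuronal lineage, was detected in 28.0% of group 2, against 5.22%, 0 of 41 and 14.3% of groups 1, 3 and 4. Pax6 was most widespread here, in 86.6% of cells against 51.3%, 58.5% and 54.3%. Median depth differed between the groups, at 10387, 18124, 13360 and 8662 UMIs, and group 2 was the deepest. Its part in the shares of cells with a UMI was not tested.

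Group 3 had the highest levels of several rule markers. Otx2os1 stood at 854 CPM against 155, 299 and 512 CPM in groups 1, 2 and 4, Cpm at 803 against 219, 352 and 76.3 CPM, and Edn2 at 762 against 335, 353 and 555 CPM. Cdh2, the N-cadherin, stood at 489 CPM in group 3 and 37.4 CPM in group 1. Otx2os1 overlaps Otx2 on the opposite strand at one end (chromosome 14, 48668708 to 48870683 and 48657677 to 48673819 in GRCm38). The sources used here do not state how reads of the overlap were assigned to a strand, and this was not tested. Group 4 was led by other enzymes. Cyp2g1 stood at 634 CPM and was detected in 91.4% of its cells, against 6.09%, 17.1% and 22.0% of groups 1 to 3. Acsm4, a mitochondrial acyl-CoA synthetase of olfactory mucosa, was detected in 85.7%, Fmo6, a flavin monooxygenase, in 65.7%, and Aqp5, a water channel, in 62.9%. Aqp5 and Aqp3, which stood at 527 CPM in group 4 and at most 122 CPM elsewhere, are both on the list of Bowman gland genes. Galnt5 of that list was also highest in group 4, at 23.8 CPM. Others of the list went the other way or were not seen. Sox9 was highest in group 1, at 93.1 CPM against 28.6 CPM in group 4. Muc5b, Obp1a, Obp2a, Bpifb9a, Bpifb9b and Lcn11 were at 0 in group 4, so the list gives group 4 no name. Not all xenobiotic enzymes were highest in group 4: Ephx1, an epoxide hydrolase, stood at 147 CPM in group 3 and 122 CPM in group 4, and Fmo1 at 28.1 and 14.3 CPM. Por, the reductase that feeds electrons to every microsomal P450, was detected in all 35 cells of group 4, at 434 CPM against 85.8, 77.4 and 127 CPM. Cyp2a5 was detected in 45.7% of group 4, but it shares reads with its near-identical copy Cyp2a4, so this value is uncertain. Several genes of the other groups were low in group 4: Six3 was detected in 37.1% of its cells, Meis1 in 8.57% and Cpm in 28.6%, against 75.6%, 68.3% and 85.4% in group 2.

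**Figure D3:**
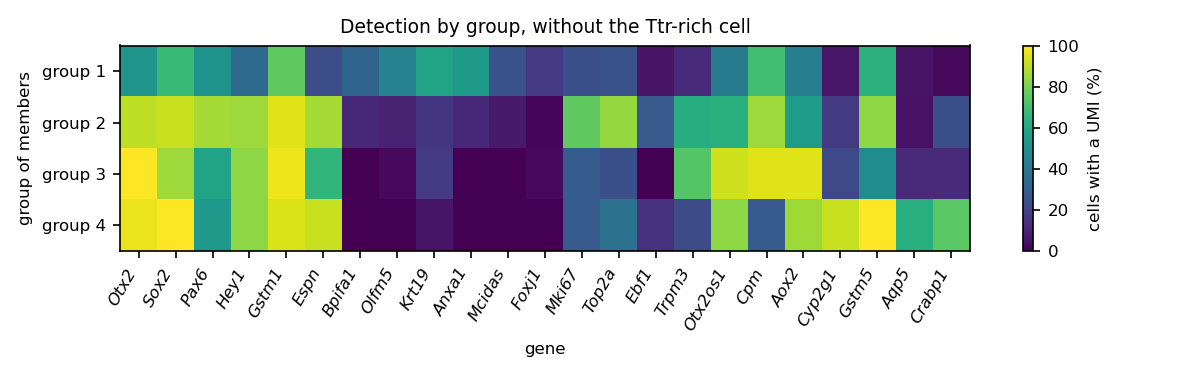
Percentage of cells with at least 1 UMI of each gene (colour) in the 4 groups of members, without the Ttr-rich cell. Otx2 was found in 52.2% of group 1 and 100% of group 3, and Cyp2g1 in 91.4% of group 4 and 6.09% of group 1.

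A pair of glutathione S-transferase genes of 1 cluster differed in opposite ways between groups 3 and 4. Gstm1 lies at chromosome 3, 108012255 to 108017973, on the minus strand, and Gstm5 on the plus strand of the same cluster at 107895821 to 107898686, with Gstm2 between them at 107981702 to 107986453. Gstm1 stood at 1625, 4663, 8217 and 1063 CPM in groups 1 to 4, whereas Gstm5 stood at 223, 194, 169 and 3265 CPM. The groups were cut over all libraries together on components that included Gstm5, so the levels by library are a description and no replication. The pattern was present in each library with cells in these groups. In group 3, Gstm1 stood at 8100 CPM in control 1, 9539 in mutant 1 and 6569 in mutant 2, and in group 4 at 771, 1047 and 1466 CPM. Gstm5 stood at 193, 174 and 94.8 CPM in group 3 and at 3599.6, 3722 and 2019.99 CPM in group 4 of the same libraries. The 2 genes thus ran in opposite directions between groups 3 and 4 in the same library. The sequences just before their starts are shown so that the 2 genes of opposite pattern can be read side by side. They are 5′ to 3′ on the strand of each gene, from RefSeq windows on GRCm38.p6, trimmed to end before the gene start of GENCODE M21, at chr3:108017974-108018223 for Gstm1 and chr3:107895604-107895820 for Gstm5. Capitals mark matches to a searched motif.
Gstm1: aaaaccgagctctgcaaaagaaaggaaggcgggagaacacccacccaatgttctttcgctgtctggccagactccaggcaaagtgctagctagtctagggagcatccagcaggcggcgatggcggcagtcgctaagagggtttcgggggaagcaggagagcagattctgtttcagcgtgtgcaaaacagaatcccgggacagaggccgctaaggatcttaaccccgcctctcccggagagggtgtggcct
Gstm5: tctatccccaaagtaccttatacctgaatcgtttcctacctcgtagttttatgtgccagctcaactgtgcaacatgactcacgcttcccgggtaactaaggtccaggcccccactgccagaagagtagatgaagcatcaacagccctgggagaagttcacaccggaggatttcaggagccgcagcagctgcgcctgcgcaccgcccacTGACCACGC

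Both strands were searched for TAATCC, the core bound by OTX-type homeobox factors, and for TGACNNNGC, the core of the antioxidant response element bound by NRF2-type factors. The 250 bases of Gstm1 held no match to either motif. The 217 bases of Gstm5 held 1 match to TGACNNNGC, at the end next to the gene, and none to TAATCC. Among 32841 RefSeq promoter windows, 8.58% held TGACNNNGC in the same 217 bases and 10.2% in 250 bases, and 5.58% and 6.25% held TAATCC. A match describes these letters and is not a binding site. The RefSeq table holds 2 windows for Gstm1, of which 1 is shown.

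Genes of the pathways that pattern this epithelium were read from lists. Among Notch genes, the effectors Hes1, Hes6 and Hey1 stood at 681, 193 and 124 CPM in control 1, and Hes1 was detected in 85.2% of group 1 and 94.9% of groups 2 to 4. The receptor Notch2 lay between 101 and 238 CPM in the 4 libraries, but at 109 CPM in control 2 without the Ttr-rich cell. The adhesion proteins that sort sustentacular cells and neurons into a mosaic were present. Nectin3 stood at 155, 102, 127 and 119.9 CPM, and was detected in 40% of group 1 and 84.8% of groups 2 to 4. Cdh2 had the same order, at 28.7% and 85.4%, whereas Cdh1, the E-cadherin of all epithelia, was detected in 75.7% and 79.7%. Slit2, a repellent of growing axons, stood at 331, 472, 404 and 384 CPM in the libraries and was detected in 81.7% of group 1 and 40% of group 4. For retinoic acid, the binding protein Crabp2 stood between 549 and 702 CPM, and Crabp1 was mostly in group 4, where it was detected in 74.3% of cells at 410.0 CPM. Of the factors that act with YAP and TAZ, Tead1 stood at 207, 408, 210.4 and 190.0 CPM, and at 341 CPM in control 2 without the Ttr-rich cell.

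The share of members among retained cells was compared between the genotypes, since the rule used no genotype. Members made up 2.13% of cells in control 1 (exact 95% binomial interval 1.71 to 2.63), 0.728% in control 2 (0.432 to 1.15), 2.64% in mutant 1 (2.09 to 3.28) and 2.15% in mutant 2 (1.73 to 2.63). Control 2 was below the other 3 libraries, and the interval of control 1 overlapped those of both mutants. The mutant mean was 0.96 percentage points above the control mean, and an exact two-sided permutation test gave p = 0.33, the smallest that 2 libraries against 2 can give. Without control 2 the difference was 0.257 points. Basal keratinocytes were also fewest in control 2, at 6.16%, 3.84%, 7.18% and 5.84% of cells. Neuronal-lineage cells, with at least 3 of 10 neuronal genes, made up 3.66%, 2.71%, 3.57% and 2.46%, fewest in mutant 2. Their part in the difference was not tested. With at least 3 markers required, the shares were 1.69%, 0.202%, 2.20% and 1.64%, so that control 1 lay between the mutants, and the exact permutation p was 0.67. Under the rule itself both mutants lay above both controls, with mutant 2 at 2.15% next to control 1 at 2.13%. With cells thinned to 4000 UMIs the shares were 1.86%, 0.232%, 2.59% and 2.39%, again with both mutants higher. That difference was 1.44 points (exact permutation p = 0.33). In each of these settings the difference between the genotype means was not larger than the spread between the controls. Intervals cover counting error only.

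**Figure D4:**
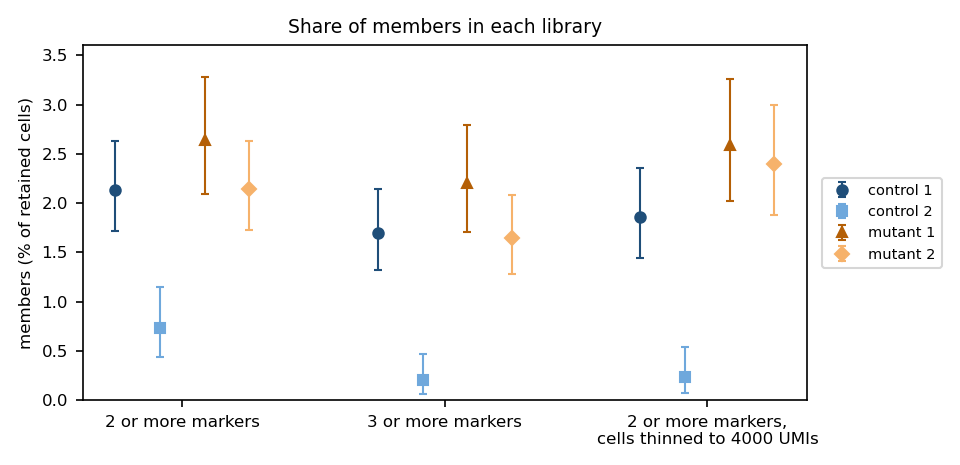
Members as a percentage of retained cells in each library, with exact 95% binomial intervals, under the rule, with 3 or more markers, and with every cell thinned to 4000 UMIs. Control 2 is lowest in each setting, at 0.728%, 0.202% and 0.232%, and control 1 stands at 2.13%, 1.69% and 1.86%. Mutant 1 stands at 2.64%, 2.20% and 2.59%, and mutant 2 at 2.15%, 1.64% and 2.39%.

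Division was read from 20 genes of the G2 and M phases. After each cell was thinned to 4000 UMIs, members with at least 2 UMIs of the list made up 58.3% of 84 and 61.5% of 13 cells in the 2 controls, against 48.7% of 76 and 53.7% of 82 in the 2 mutants. Thinning left out 3, 5, 3 and 8 shallower members. The mutant mean was 8.76 points below the control mean (exact two-sided permutation p = 0.33, the smallest possible), and the exact 95% intervals overlapped, from 47.1 to 69.0% in control 1, 31.6 to 86.1% in control 2, 37.0 to 60.4% in mutant 1 and 42.3 to 64.7% in mutant 2. Without thinning the shares were 70.1%, 77.8%, 59.5% and 56.7%. With a limit of 4 UMIs they were 50%, 38.5%, 39.5% and 42.7%, and control 2 was then the lowest, with an exact permutation p of 1.00. Of the 20 genes, 0 passed the edgeR test described next.

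Expression was compared between mutant and control members with edgeR's quasi-likelihood test on UMIs summed per library, with Benjamini-Hochberg adjustment over all 10376 genes tested. At an adjusted p under 0.05, 0 genes were called (0% of those tested), and 235 had an unadjusted p under 0.05 (2.26%). DESeq2 called 2 genes, Ttr and Htr2c, both abundant in the Ttr-rich cell, and had 171 at an unadjusted p under 0.05. Both mutant libraries lay above both controls for 17.7% of all genes and below both for 15.4%. Counts of genes without overlap below are read against those shares. Leaving out control 1 raised the calls to 457 (4.33%), leaving out control 2 to 3 (0.0269%), and leaving out mutant 1 or mutant 2 to 9 or 6.

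The targeted genes come first. Yap1 (chromosome 9, 7931999 to 8004596) stood at 42.0, 51.0, 44.5 and 30.4 CPM in the members of control 1, control 2, mutant 1 and mutant 2, or 63, 12, 67 and 33 UMIs. Its libraries overlapped, and the log2 change was -0.24 ± 0.31 (SE, edgeR adjusted p = 1.00). Without the Ttr-rich cell, control 2 stood at 29.7 CPM of Yap1 and the log2 change was -0.066. Wwtr1, the gene of TAZ (chromosome 3, 57455649 to 57575910), stood at 34.0, 97.8, 48.4 and 44.3 CPM. Control 2 was the highest and control 1 the lowest. The log2 change was -0.18 ± 0.45 (edgeR adjusted p = 1.00), and it was 0.44 without control 2. Without the Ttr-rich cell, control 2 stood at 89.0 CPM of Wwtr1 and the log2 change was -0.0030. The libraries read transcript ends, and where the deleted exons lie is not given in the sources used here, so these levels do not check the labels. Sox10, whose sequences drive the Cre, had 6, 0, 9 and 1 UMIs, or 4.00, 0, 5.97 and 0.922 CPM. The 0 in control 2 allows up to 12.8 CPM.

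Eif3l and Polr2f, neighbours of Sox10 on chromosome 15 (79075179 to 79094405 and 79141009 to 79151774, with Sox10 at 79154908 to 79165240), did separate the libraries. Polr2f, a subunit of the RNA polymerases, stood at 251, 191, 474 and 400.3 CPM in members, and Eif3l, a translation initiation factor subunit, at 101, 111, 208 and 180 CPM. Both mutants were above both controls for each gene. The log2 changes were 0.94 ± 0.22 and 0.89 ± 0.21 (SE, edgeR adjusted p = 1.00 for both). In basal keratinocytes of the same libraries the changes were 0.98 ± 0.12 and 1.02 ± 0.12 (edgeR adjusted p = 0.193 for both), and in neuronal-lineage cells 1.00 ± 0.20 and 1.02 ± 0.21 (edgeR adjusted p = 1.00 for both). The list of genes around Sox10 was drawn up after their values had been seen. The mutants alone carry the Sox10-driven transgene, and its part in these levels was not tested.

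The genes with the smallest unadjusted p among those without overlap, 10 in each direction, are given as values that did not pass. Among those with both mutants above both controls, Bpifa1 (chromosome 2, 154142880 to 154149219) stood at 733, 136, 3800 and 2482 CPM, with a log2 change of 2.73 ± 0.58 (SE, edgeR adjusted p = 1.00). These levels rest on few cells: members with at least 5 Bpifa1 UMIs numbered 11 of 87, 1 of 18, 14 of 79 and 14 of 90, and a single cell of mutant 1 held 1655 of its 5726 UMIs. The shares of such members were 12.6%, 5.56%, 17.7% and 15.6%, with overlapping intervals, and the median Bpifa1 count of these cells was 74, 32, 265.5 and 76.5 UMIs. Without control 2 Bpifa1 was called, at a log2 change of 2.09 ± 0.19 (edgeR adjusted p = 2.3e-05), together with Reg3g at 1.36 ± 0.21 and Mgat4e at -3.72 ± 0.55 (edgeR adjusted p = 0.014 for both), with 1 control library in that fit, whose lone value is assumed to vary like the mutants. Bpifa1 was also called without mutant 1 (2.44 ± 0.47, edgeR adjusted p = 0.0089) and without mutant 2 (3.09 ± 0.51, edgeR adjusted p = 0.0028). Reg3g, an antimicrobial lectin, stood at 79.3, 8.50, 226 and 183 CPM. Both secreted genes belong to the leading genes of group 1, which held 34.5%, 66.7%, 40.5% and 45.6% of the members of the 4 libraries. Within group 1, Bpifa1 stood at 1604, 372, 9885 and 6024 CPM, in control 2 from 1 cell. The part of group make-up in the Bpifa1 levels was not tested.

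Otx2os1, at 254, 225, 417 and 413 CPM, also lay higher in both mutants, but it is a marker of the rule and its levels are a description. Tmprss2, a surface protease of airway epithelium, stood at 6.66, 8.50, 25.2 and 30.4 CPM. Lgals1, a galectin, stood at 56.0, 25.5, 106 and 131 CPM. Both sets of libraries were apart, but the log2 change of Lgals1 turned from 1.29 to -0.25 when 13 members with 5 or more collagen UMIs were left out. Of 10 mesenchyme genes 6 were tested and 0 called. Both mutants lay above both controls for 3 of the 6, and the median log2 change was 0.81, while Dcn, the most abundant, had 0.006 ± 0.21 (SE). Lcn2, Scgb1c1, Cdh11 and Hspa1b made up the rest of the named higher genes with log2 changes of 1.69 to 2.34, and Hspa1b shares reads with its near-identical copy Hspa1a. Some of these values moved widely: without control 1, Scgb1c1 stood at 7.75 and Hspa1b at 4.15, and Cdh11 at 1.04 with doublets removed. Control 2 held 0 Scgb1c1 UMIs and 1 of Hspa1b, so the values without control 1 depend on the prior count.

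In the other direction, Ctnna2, a neural alpha-catenin, stood at 84.6, 115, 50.4 and 36.0 CPM, a log2 change of -1.13 ± 0.29 (SE, edgeR adjusted p = 1.00). The noncoding gene 3110039M20Rik stood at 58.0, 63.8, 26.5 and 33.2 CPM, and Slc44a5, a choline-transporter-like protein that was also a leading gene of group 3, at 30.7, 25.5, 9.29 and 8.30 CPM. Both mutants lay below both controls in each. Group 3 made up 23.0%, 5.56%, 13.9% and 11.1% of the members of the 4 libraries. In control 2 that share is the Ttr-rich cell alone. The part of group 3 in Slc44a5 was not tested. Rnf141 stood at 24.7, 29.8, 9.95 and 9.22 CPM. Igfbpl1, Hydin, Mgat5b, Dgki, Fgf17 and Pak6 were lower as well but with at most 3 UMIs in each mutant library, so their fitted changes depend on the prior count.

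**Figure D5:**
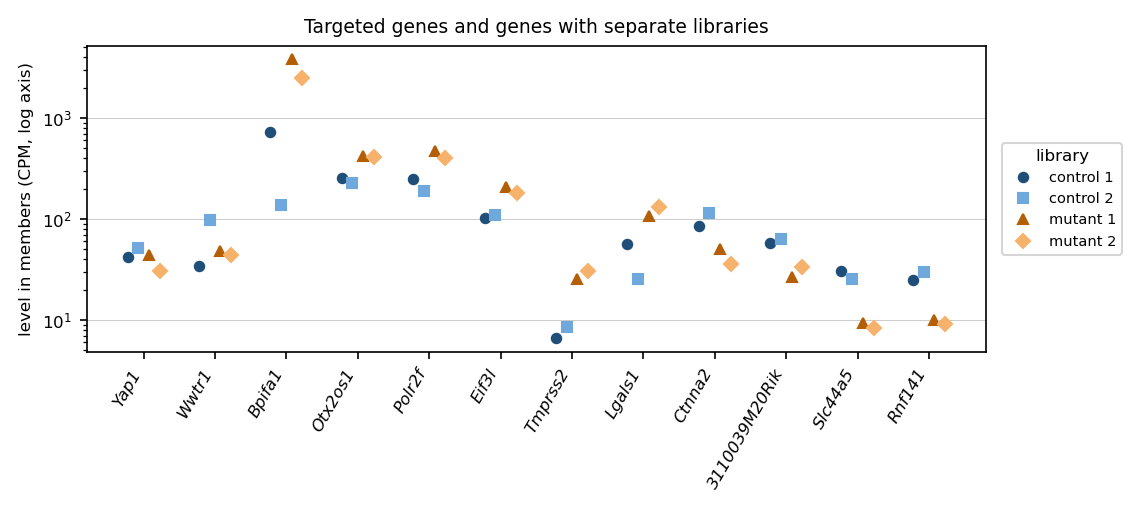
Levels of Yap1, Wwtr1 and named genes in the members of each library, in CPM on a log axis; each point is 1 library. The points of Yap1 overlap, with 42.0 and 51.0 CPM in controls against 44.5 and 30.4 in mutants, whereas both mutants are above both controls from Bpifa1 to Lgals1 and below them from Ctnna2 to Rnf141. The points of control 2 include the Ttr-rich cell, without which its Yap1 stood at 29.7 CPM.

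Lists of genes were described by their counts beside all tested genes, whose median log2 change was -0.0021. Of 24 known targets of YAP and TAZ, 21 were tested and 0 were called. Both mutants were above both controls for 5 and below both for 4, close to the shares of all genes, and the median log2 change was 0.14. Ccn1, a matricellular target, stood at 177, 217, 253 and 208 CPM, and Igfbp3 at 22.7, 17.0, 37.8 and 36.9 CPM. Of 19 YAP, TAZ, TEAD and Hippo genes, 17 were tested, 0 were called and 2 lay above and 3 below without overlap. Of the Notch genes, 13 of 18 were tested and 0 called. Hes1 stood at 681, 1050 and 615, 509 CPM in the controls and mutants, with a log2 change of -0.60 ± 0.24 (edgeR adjusted p = 1.00), and the list's median moved from -0.18 to 0.025 without control 2.

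Enzymes of xenobiotic metabolism had 16 of 24 genes tested and 0 called. Both mutants were above both controls for 7 of the 16 and the median log2 change was 0.62, but without control 2 the median was 0.19. The same held for the 12 respiratory genes, of which 7 were tested: 5 lay above without overlap, with a median of 0.85, and 0.46 without control 2. In the list of 18 neuronal-lineage genes, 8 were tested, 7 had changes below 0 and the median was -0.62, against 0.087 without control 2. Ebf1, in the last list, stood at 39.98, 229.6, 65.0 and 47.0 CPM. Immediate early and heat shock genes, which respond to cell handling among other stimuli, had 15 of 15 tested and 0 called. Both mutants lay above both controls for 8 of the 15, or 53.3%, and 14 had changes above 0, with a median of 0.41, and 0.19 without control 2. Jun stood at 638, 468, 823 and 859.6 CPM. Of 16 genes common to epithelia, 0 were called and 7 lay above without overlap, or 43.8%, with a median of 0.24, and 0.061 without control 2. Basement membrane chains, retinoid, FGF, BMP, WNT and SHH genes, adhesion genes and guidance factors each had 0 calls. For the genes around Sox10, 3 of 4 were tested, all 3 lay above without overlap, and the median of 0.89 was 0.86 without control 2.

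Whether the genotype difference itself differed between members and other cells was tested by an interaction term with library in the model. Against basal keratinocytes 0 of 11542 genes were called (0%), with 301 at an unadjusted p under 0.05, and against neuronal-lineage cells 0 of 11922 (0%), with 248. The neuronal-lineage cells of control 2 held 32.7 CPM of Epcam and 14.7 CPM of Gstm1, against 381 to 426 and 372 to 1479 CPM in the other libraries, so they were not a like population, and without control 2 that test called 12 genes. Interaction log2 values of Eif3l and Polr2f were -0.14 ± 0.26 and -0.025 ± 0.26 against basal keratinocytes, so their differences between the genotypes were of like size in both. Against respiratory-type cells the test could use 3 libraries, since control 2 had none, and it called 1 of 10100 genes (0.0099%). This was Bpifa1, at 733, 3800 and 2482 CPM in members of control 1, mutant 1 and mutant 2 and 610, 249 and 84.9 CPM in respiratory-type cells. Its interaction log2 value was 3.92 ± 0.43 (SE). Bpifa1 is one of the genes that chose the respiratory-type cells, and 1 control library stands in that fit. A single cell of mutant 1 held 1655 of the 5726 Bpifa1 UMIs of its members. The test can therefore not decide on a genotype difference, and the value is a description.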

How the data were processed

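Single cells of 4 libraries (2 control, 2 mutant; whole noses) were measured with 10x 3' chemistry, per the labels' protocols. Each deposited matrix gives whole UMI counts of genes in barcodes, made by the authors with Cell Ranger 8.0.1, per the file headers; the submitters' processing notes list Cell Ranger 4, Seurat 4.3.0 and mm10. Retained cells had at least 500 genes and at most 10% mitochondrial UMIs. Scrublet's automatic threshold marked between 0 and 2 cells per library and had not worked, so doublets were kept, and removed by score only as an alternative. Summed counts of a class in a library entered edgeR 4.0.16 (TMM, filterByExpr; SE is the log2 change over the square root of F) under R 4.3.3, with DESeq2 1.42.0 as an alternative and Benjamini-Hochberg adjustment. Members' groups used numpy 2.4.6 and scipy 1.17.1, and Scrublet was run in scanpy 1.11.5. GENCODE M21 positions matched 32158 of 32285 features. The fit was checked on counts simulated from a common mean profile and a fixed dispersion, with 200 genes changed 4-fold. It recovered 82% of them in the main test and 38% in the interaction with neuronal-lineage cells. No simulated library was made to stand apart as control 2 does, so these shares do not measure the power in the real data. The members, gene lists and tests were chosen with earlier results of these data known. Named genes were the targeted and rule genes, the 20 leading genes, those of smallest p without overlap in each direction, the most abundant of each list, and interaction calls.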

Additional observations from a re-analysis of the deposited data

Results flagged for a closer look

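Bpifa1 was the gene called by edgeR's interaction test between the members and the respiratory-type cells of the same libraries (log2 value 3.92 ± 0.43, SE). Members stood higher in both mutants than in control 1 (3800 and 2482 against 733 CPM), and respiratory-type cells lower in both (249 and 84.9 against 610 CPM). The value rests on 12, 15 and 13 respiratory-type cells and on 1 control library. Bpifa1 was used to choose those cells, so the value is a description. A single cell of mutant 1 held 1655 of the 5726 Bpifa1 UMIs of its members.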

How the results depend on the processing

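Alternatives were computed for the share of members, the share in division, the counts of called genes and 22 named genes. The difference in the share of members was 0.257 to 1.66 points when 1 library was left out, and 13.4 points among olfactory, respiratory and neuronal-lineage cells. For division it was -11.3 to -6.28 points with 1 library left out, -15.9 without thinning and -3.15 with at least 4 UMIs. Called genes in members went from 0 to 2 with DESeq2, 97 with no filter, 32 with the replicate block, between 3 and 457 with 1 library left out (457 without control 1, 9 without mutant 1, 6 without mutant 2), and 30 in groups 2 to 4 without control 2, a setting chosen after seeing the data. The interaction with neuronal-lineage cells called 30 genes with no filter and 0 to 175 with 1 library left out, that with basal keratinocytes 37 and 0 to 477, and that with respiratory-type cells 3 with no filter; leaving out a library was not run for the last, which has no residual degrees of freedom then. The highest counts in these ranges are all without control 1, when control 2 is the lone control. Wwtr1 ran from -1.05 without control 1 to 0.44 without control 2, and it changed sign there, with 3 markers (0.14) and with thinned cells (0.093), and Lgals1 without collagen-rich cells (-0.25). The named genes otherwise kept their direction wherever they could be fitted. The cause of these moves was not tested. Deviations of same-numbered libraries from their group means correlated at 0.096, and no label ties the numbers to a litter or day, so libraries paired by the replicate block, with its calls under the block (Polr2f, Lcn2, Scgb1c1, Hspa1b, Igfbpl1, Hydin, Pak6 and Bpifa1 among the named genes), share only a number. With 18 members and 235165 UMIs, depth limits what control 2 can show.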

Other observations

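In groups 2 to 4 alone, without control 2 and the Ttr-rich cell, edgeR called 30 genes between the 57 cells of control 1 and the 47 and 49 cells of the mutants, 22 higher and 8 lower. This setting was chosen after seeing the data, has 1 control library, and its calls have no second control to compare with. Among them, Gstm1 had a log2 change of -0.51 ± 0.12 (SE, edgeR adjusted p = 0.0155). The make-up of these cells differed: group 3, where Gstm1 was highest, held 20 of 57 cells in control 1 and 11 of 47 and 10 of 49 in the mutants. Within group 2 Gstm1 stood at 5871 CPM in control 1 against 3328 and 4577 CPM in mutants 1 and 2, lower in both. Within group 3 Gstm1 stood at 8100 against 9539 and 6569 CPM, and within group 4 at 771 against 1047 and 1466 CPM. The part of group make-up in the Gstm1 change was not tested. Sox9 was also called, at 1.93 ± 0.43 (edgeR adjusted p = 0.0055), but over all members it stood at 36.0, 196, 81.0 and 23.1 CPM, with the control left out the highest and a change of -0.74 ± 0.80 with all 4 libraries. Polr2f was called as well, at 0.79 ± 0.21 (edgeR adjusted p = 0.0408). With all 4 libraries and these groups, 0 of 8724 genes were called, with 239 at an unadjusted p under 0.05.

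Control 2 also carried genes that the other libraries' members held little of. Among 1722 genes of at least 100 CPM, and without the Ttr-rich cell, 41 stood more than 2-fold below every other library and 25 more than 2-fold above. The same counts were at most 1 for each of the other 3 libraries. Higher genes were Eya2, a placodal transcription cofactor, at 524 CPM against 138 to 173, and Aldh1a3, which makes retinoic acid, at 272 against 64.6 to 90.9 CPM. Igfbp5 stood at 1923 against 416 to 690 CPM. Lower genes included the tight-junction claudin Cldn3, at 98.9 against 327 to 349 CPM, and Mt1, a metallothionein, at 59.3 against 232 to 425 CPM.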
